A study of Mus musculus with 6 samples.

Results

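Cxcl1, Cxcl2, Cxcl3 and Cxcl5 are secreted chemokines that attract neutrophils, and Cxcr2 is the receptor through which neutrophils sense them. These 5 genes were taken by symbol from the 32285 genes of the count tables, where each has 1 row. They are described here across the cell classes of 6 pancreatic tumours, from the cells that make the chemokines to the cells that carry the receptor, and beside the share of neutrophils in each tumour.

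Chemokines of this family bind Cxcr2, a G-protein-coupled receptor on the neutrophil surface, and set up gradients along which neutrophils leave the marrow and enter inflamed tissue. Their genes are induced quickly by interleukin-1, tumour necrosis factor, interleukin-17 and bacterial products, largely through the transcription factor NF-kB. In pancreatic cancer this axis is known for bringing neutrophils into the tumour, where they are often a large part of the immune cells.

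Each tumour came from 1 KPC mouse, and the labelled genotype of both groups includes P53LSL.R172H/+ and Pdx1-Cre. The mutant p53 allele is silent until the Cre of the pancreatic Pdx1 promoter removes a stop cassette, and the tumours arise in place in mice that keep their own immune system. IPI-926, an inhibitor of the Hedgehog pathway protein Smoothened, was given to 3 mice at 40 mg/kg daily by oral gavage for 2 days, and 3 mice received its vehicle, hydroxypropyl-beta-cyclodextrin in water. Tumours were taken 2 hours after the final dose, trimmed of healthy pancreas, digested with enzymes at 37 °C and profiled as 1 library of 10x Genomics Single Cell 3' v3 each. The labels give no age, sex or strain, and replicate numbers only name the libraries.

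After filtering, 49797 cells remained, between 6184 and 14156 per library. Vehicle libraries held a median of 4237.5 to 7711 UMIs per cell and IPI-926 libraries 2705 to 3886.5, which do not overlap (exact permutation test, two-sided, p = 0.1, the lowest value available with 3 per group). The part of this depth gap in the results below was not tested. A UMI marks 1 captured RNA molecule, and levels below are counts per 1000000 (CPM) of the summed UMIs of a class in a library. One library was unlike the rest, IPI-926 replicate 3. From it came 98.8% of a macrophage cluster of 1953 cells, 90.8% of another of 2609, all 1941 cells of the larger fibroblast cluster, and 99.8% of a cluster of 3683 cells with few UMIs that was given no name. Unnamed clusters held 24.7%, 15.4% and 10.2% of the cells of vehicle replicates 1 to 3 and 20.8%, 38.8% and 30.7% of those of IPI-926 replicates 1 to 3. Between 10 and 52 cell barcodes were shared by any pair of libraries.

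The 4 chemokine genes lie in 1 stretch of 146.6 kb on chromosome 5 of GRCm38, all on the plus strand and all protein coding. In order they are Cxcl5 (ENSMUSG00000029371, 90759360 to 90761624), Cxcl3 (ENSMUSG00000029379, 90786103 to 90789600), Cxcl1 (ENSMUSG00000029380, 90891241 to 90893115) and Cxcl2 (ENSMUSG00000058427, 90903871 to 90905938). Cxcr2 (ENSMUSG00000026180) lies on chromosome 1 from 74153989 to 74161246, also on the plus strand. These positions are from GENCODE vM21.

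Cxcl1, Cxcl2 and Cxcl3 share a stretch of sequence just before the gene that Cxcr2 does not have. RefSeq windows on GRCm38.p6 were matched for 4 of the 5 genes. Cxcl5 had no window, so its sequence was not examined. The following run from 120 to 29 bases before the RefSeq start of each, 5′ to 3′ on the plus strand. Capitals mark GGGAATTTCCC, the longest run of letters common to these 3 windows, which has the form of a site that NF-kB proteins bind. It was picked out by looking at these same sequences, and was then searched on both strands.
Cxcl1, chr5:90891125-90891216: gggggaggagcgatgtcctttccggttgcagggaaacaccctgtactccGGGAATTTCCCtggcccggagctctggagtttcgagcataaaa
Cxcl2, chr5:90903779-90903870: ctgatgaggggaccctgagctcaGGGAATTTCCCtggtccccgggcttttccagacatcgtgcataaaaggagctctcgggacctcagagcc
Cxcl3, chr5:90785981-90786072: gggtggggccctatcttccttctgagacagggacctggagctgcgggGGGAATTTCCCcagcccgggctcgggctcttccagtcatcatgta
The 11 bases begin 71 bases before the start of Cxcl1, 97 before that of Cxcl2 and 73 before that of Cxcl3. The same letters occur in 14 of 32544 RefSeq windows of 250 bases before a start, or 0.0430%. The window of Cxcr2 did not hold them. As the letters were picked for being common to 3 such windows, this share is a description and not a test. A match is a run of letters and not a measured site of binding.

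The neutrophil class held 7540 cells, named from a marker list that includes S100a8, S100a9, Csf3r, Retnlg and G0s2. All 5 members were left out of the clustering and of the marker lists. They could still stand among the 10 leading genes of a cluster that the naming used. Cxcr2 did so in the largest neutrophil cluster and Cxcl3 in a smaller one. Neutrophils made up 5.93%, 27.2% and 11.5% of the cells of vehicle replicates 1 to 3. They were 34.2%, 21.2% and 1.34% of those of IPI-926 replicates 1 to 3. The highest and the lowest share were thus both after IPI-926, and the groups overlapped (mean ± SD 14.9% ± 11.1 and 18.9% ± 16.5, n = 3 each, two-sided exact permutation p = 0.8, with 0.1 the smallest possible). The share in IPI-926 replicate 3 was 0.774% with a stricter cell filter and 3.95% with a looser one, in which neutrophils were called by markers. The group difference, 4.02 percentage points, was 7.16 with the stricter filter. As a share of immune cells the difference turned, from 38.4% ± 14.7 to 32.4% ± 25.6.

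Cxcl2, known as MIP-2, was the most abundant of the 5 genes, with 797410 UMIs in 50.4% of all cells. Its level was highest in neutrophils, at 8633, 18018 and 16616 CPM in vehicle replicates 1 to 3 and 23246, 24413 and 5945 CPM in IPI-926 replicates 1 to 3. Macrophages and monocytes came next among the named classes, at 4764, 5281 and 4416 CPM and at 5016, 7146 and 1005 CPM. Neutrophils were above macrophages and monocytes in 6 of 6 libraries, by 1.85 ± 0.57 on the log2(CPM + 5) scale (SD). A cluster of 844 cells led by Mmp12, a macrophage elastase, and Atp6v0d2 carried 4194 to 6150 CPM in the 5 libraries with at least 20 of its cells. It held 11 macrophage markers but was left unnamed because its 10 leading genes held a neutrophil marker and no macrophage marker.

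Macrophages and monocytes were nevertheless the larger source of Cxcl2 molecules in most tumours. A cell of this class held a median of 6804 UMIs and a neutrophil 1599. They supplied 71.7%, 53.1% and 48.5% of the Cxcl2 UMIs of the vehicle libraries and 27.5%, 53.2% and 80.1% of those of the IPI-926 libraries. Neutrophils supplied 9.83%, 34.7% and 30.9%, and 59.2%, 28.97% and 3.62%. In IPI-926 replicate 1, the library with the highest neutrophil share, neutrophils were the larger source, and in the other 5 libraries macrophages and monocytes were. The Mmp12 cluster added 8.004% on average. A class with few cells and one with little of the gene's RNA in each cell cannot be told apart from such shares alone, so levels and shares are given together.

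**Figure D1:**
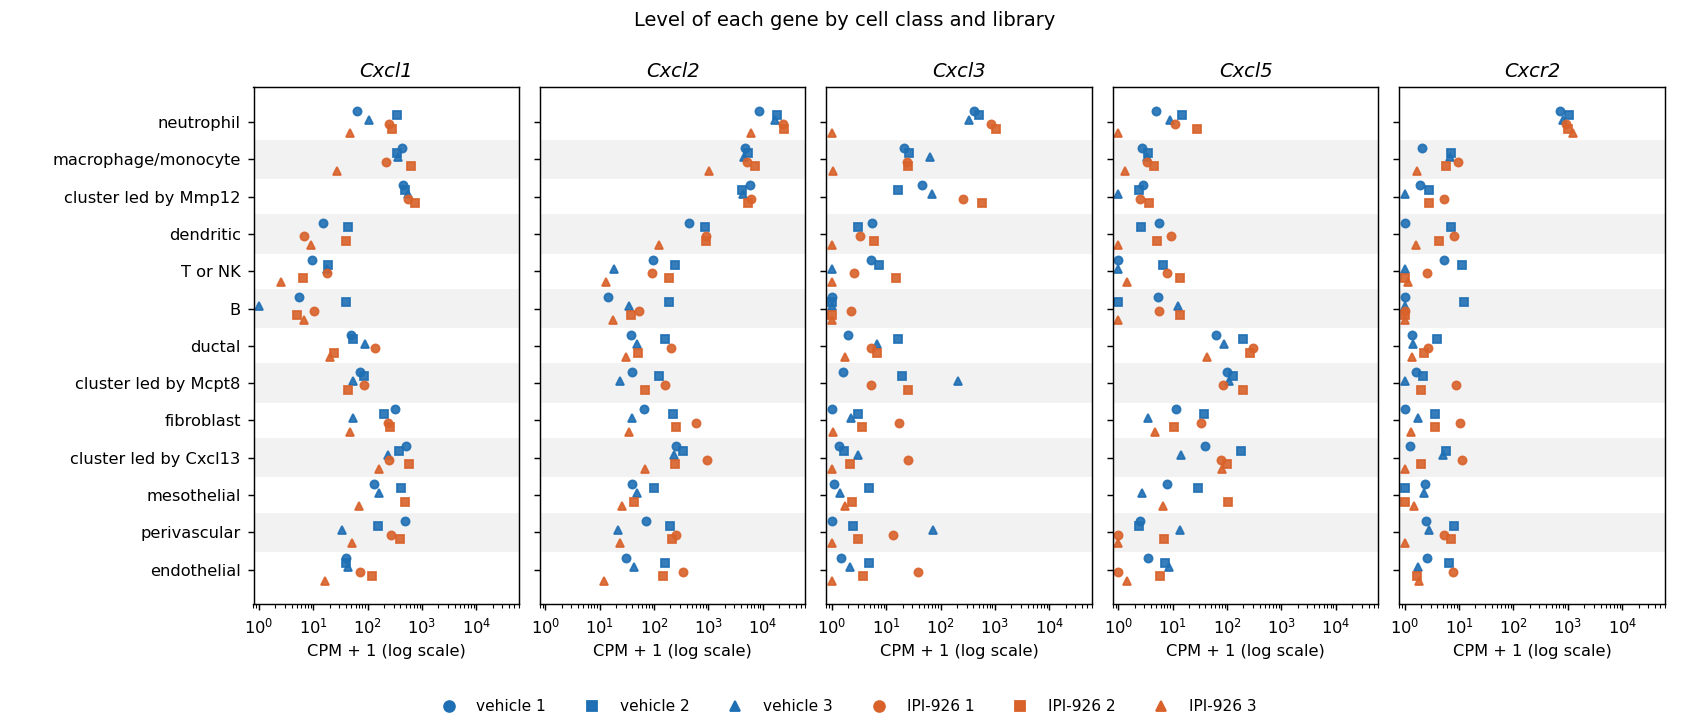
Level of the 5 genes in 13 cell classes and clusters, with 1 point per library of at least 20 cells, as CPM + 1 on a log axis. Colours are the treatment groups and shapes the replicates. Cxcl2 is highest in neutrophils, macrophages and the cluster led by Mmp12, Cxcl5 in ductal cells and the clusters led by Mcpt8 and Cxcl13, and Cxcr2 stands at 711 to 1252 CPM in neutrophils and at most 11.1 CPM in the other classes shown.

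Low Cxcl2 levels outside myeloid cells can include RNA that neutrophils released into the suspension. As a yardstick, the Cxcl2 UMIs of a class were compared with the number that would accompany its S100a8 and S100a9 UMIs at the ratio found in the neutrophils of the same library. In macrophages and monocytes the measured number was 41.3 to 613.5 times this number. In fibroblasts it was 1.11 times in IPI-926 replicate 1 and 1.85 times in vehicle replicate 2, the libraries richest in neutrophils, and 4.34 to 92.1 times in the other 4. Fibroblast Cxcl2 is therefore not read as expression in IPI-926 replicate 1 and vehicle replicate 2. Over all 6 libraries its level ran from 34.1 to 580.4 CPM. The yardstick follows neutrophil RNA only. RNA released by macrophages and monocytes, the larger source of Cxcl2 in most tumours, was not tested. Fibroblast expression in the other 4 libraries was thus not shown by it.

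Cxcl1, also called KC, came from many classes. It amounted to 84705 UMIs in 24.4% of cells. Macrophages and monocytes held 422.4, 339.3 and 362.1 CPM in vehicle replicates 1 to 3 and 216.2, 625.4 and 26.4 CPM in IPI-926 replicates 1 to 3. The vehicle libraries lay close together and the IPI-926 libraries spread on both sides of them. The Mmp12 cluster held 451.1, 489.9 and 544.7 CPM and 557.4 and 754.5 CPM, with only 4 cells in IPI-926 replicate 3. It was above the other classes compared in 4 of these 5 libraries, while in vehicle replicate 1 a cluster led by Cxcl13, at 508.6 CPM, and perivascular cells, at 484.6 CPM, exceeded it. Single macrophage clusters reached like levels, 434.5 to 750.04 CPM in one over 5 libraries and 777.01 and 828.7 CPM in another over 2.

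Stromal and lining cells carried Cxcl1 as well. Fibroblasts, the matrix-producing cells of the stroma, held 52.4 to 311.3 CPM in vehicle and 47.4 to 251.9 CPM after IPI-926, and mesothelial cells, which line the abdominal organs, held 68.1 to 476.6 CPM in the 5 libraries with enough cells. Perivascular cells ranged from 33.3 to 484.6 CPM. A cluster of 914 cells led by Cxcl13 and Pappa, with both fibroblast and mesothelial markers, held 163.8 to 566.9 CPM. From the Mmp12 cluster down to neutrophils, through these classes in the order of their mean log2 levels, no neighbouring pair passed against the spread between libraries (two-sided exact sign-flip test within libraries, unadjusted p = 0.125 to 0.97). T and NK cells, with 1.58 to 17.5 CPM, and B cells, with 0 to 38.8 CPM, were among the lowest.

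No class supplied Cxcl1 in all tumours alike. Macrophages and monocytes gave the largest average share, 28.1% of UMIs, but 11.98% in IPI-926 replicate 3 and 46.1% in IPI-926 replicate 2. Fibroblasts supplied 71.1% in IPI-926 replicate 3, where they numbered 1991 cells, and 1.32% to 19.5% elsewhere. Ductal cells, which include the tumour cells, supplied 56.0% in vehicle replicate 3, and the Cxcl13 cluster 37.0% in vehicle replicate 1. The leading source of Cxcl1 was macrophages and monocytes in vehicle replicate 2 and IPI-926 replicate 2. In IPI-926 replicate 1 it was the cluster led by Mcpt8 and Pvt1, at 34.5%.

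**Figure D2:**
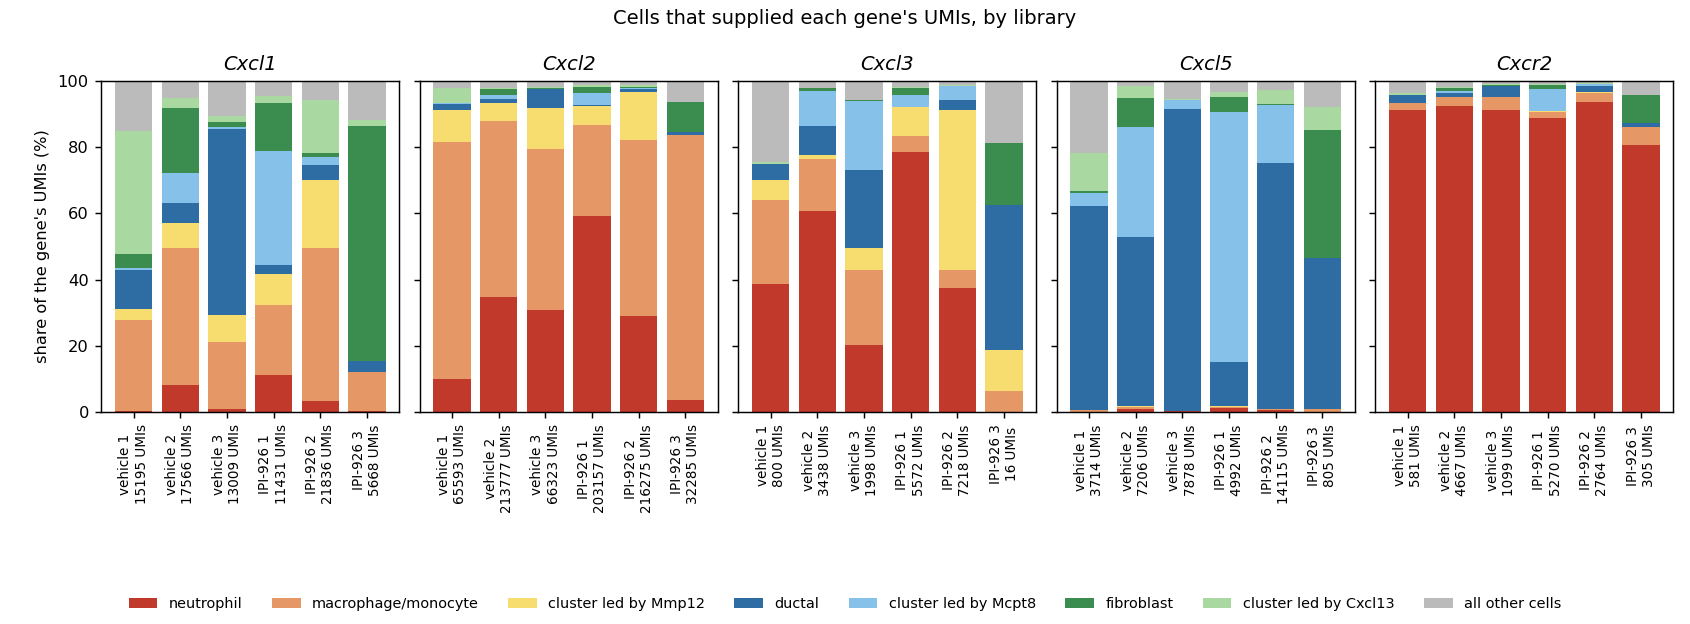
Share of each gene's UMIs by the cells they came from, 1 bar per library, with the number of UMIs under the bar. Neutrophils give 80.7% to 93.7% of Cxcr2 and 3.62% to 59.2% of Cxcl2, while the leading source of Cxcl1 changes from library to library. The Cxcl3 bar of IPI-926 replicate 3 rests on 16 UMIs.

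Cxcl3, a close relative of Cxcl1 and Cxcl2, was rarer, at 19042 UMIs in 6.74% of cells, and was highest in neutrophils. They held 414.9, 507.3 and 329.6 CPM in vehicle replicates 1 to 3 and 847.0, 1052 and 0 CPM in IPI-926 replicates 1 to 3. Macrophages and monocytes held 20.6 to 62.2 CPM in vehicle and at most 24.0 CPM after IPI-926. In the 5 libraries with Cxcl3 in neutrophils, their level exceeded that of macrophages and monocytes in each.

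Neutrophils supplied 38.8%, 60.8% and 20.3% of the Cxcl3 UMIs of the vehicle libraries and 78.7%, 37.4% and 0% of those of the IPI-926 libraries. IPI-926 replicate 3 had 16 Cxcl3 UMIs in all, so its shares are coarse. Neutrophils held the highest share in 3 of the 6 libraries. In IPI-926 replicate 2 the Mmp12 cluster supplied more, 48.4%, and in vehicle replicate 3 ductal cells gave 23.4%, macrophages and monocytes 22.7% and the Mcpt8 cluster 20.9%. The Mcpt8 cluster of that library held 212.8 CPM of Cxcl3, against 0.635 to 24.2 CPM in the other 4 libraries with enough of its cells.

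IPI-926 replicate 3 held almost no Cxcl3 in any cell. Its 14156 cells gave 16 Cxcl3 UMIs, or 0.111 CPM, against 8.90 to 78.8 CPM over all cells of the other libraries. Its 190 neutrophils gave 0, which allows up to 15.3 CPM at 3 counts (counting error only), while the lowest other library had 329.6 CPM. The same neutrophils held the lowest Cxcl1 and Cxcl2 of the 6 libraries, 45.8 and 5945 CPM, and the highest Cxcr2, 1252 CPM.

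Cxcl5, known as LIX, was high in ductal cells and in 2 clusters. Ductal cells, named from a marker list that includes Krt19 and Epcam, held 61.3, 193.8 and 87.9 CPM in vehicle replicates 1 to 3 and 293.3, 265.4 and 41.0 CPM in IPI-926 replicates 1 to 3. The cluster of 1475 cells led by Mcpt8 and Pvt1 carried 6 ductal markers and had a like level, 98.4, 126.1 and 107.9 CPM and 82.4 and 197.4 CPM. It stayed unnamed because its 10 leading genes held a mast cell or basophil marker and no ductal marker. Macrophages and monocytes held 0.311 to 3.60 CPM, and ductal cells exceeded them in 6 of 6 libraries by 4.18 ± 0.94 on the log2(CPM + 5) scale. The Cxcl13 cluster, with fibroblast and mesothelial markers, held 38.4, 178.1 and 13.4 CPM in vehicle and 76.7, 100.1 and 80.4 CPM after IPI-926. Ductal cells were above it in 5 of 6 libraries, by 0.90 ± 1.19 on the same scale (two-sided exact sign-flip p = 0.16), and below it in IPI-926 replicate 3.

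Ductal cells and the Mcpt8 cluster together supplied most Cxcl5 in 5 of the 6 tumours. Ductal cells gave 61.6%, 51.1% and 91.2% of the UMIs in the vehicle libraries and 13.6%, 74.1% and 45.5% in the IPI-926 libraries. In IPI-926 replicate 1, with 60 ductal cells against 790 of the cluster, 75.4% came from the Mcpt8 cluster. In IPI-926 replicate 3 fibroblasts gave 38.8%, at only 3.67 CPM. The share of ductal cells with a Cxcl5 UMI ran from 16.6% in vehicle replicate 1 to 68.9% in IPI-926 replicate 2. In macrophages and monocytes it was 0.181% to 4.73%. The median depth was 4991 to 46446 UMIs in ductal cells and 5276 to 12458.5 in macrophages and monocytes. With each cell thinned to 1000 UMIs, the shares were 3.45% to 16.3% and 0.023% to 0.478%.

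Cxcl5 also varied among ductal clusters. The largest, of 3013 cells, ran from 29.5 CPM in IPI-926 replicate 3 to 269.4 CPM in IPI-926 replicate 2. A cluster of 360 ductal cells ran from 92.6 to 369.2 CPM in the 3 vehicle libraries, and one of 1403 cells from 34.9 to 77.4 CPM in 4 libraries.

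Cxcr2 was found at a high level in neutrophils alone among the classes measured. It stood at 710.7, 1045 and 815.1 CPM in the neutrophils of vehicle replicates 1 to 3 and 905.3, 1009 and 1252 CPM in those of IPI-926 replicates 1 to 3. The next class, macrophages and monocytes, held 0.661 to 8.43 CPM. The difference was 6.71 ± 0.61 on the log2(CPM + 5) scale and positive in 6 of 6 libraries (two-sided exact sign-flip p = 0.03125, the smallest 6 libraries allow). Of 70 neighbouring pairs tested over the 5 genes this was the only one under 0.05, and it did not pass after adjustment (0.73), which a family of this size does not permit with 6 libraries.

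The few Cxcr2 UMIs of macrophages and monocytes were 0.930 to 2.65 times the number that would come with neutrophil RNA. They were 11, 132 and 43 in the vehicle libraries, where the S100a8 and S100a9 yardstick gave 6.31, 94.02 and 16.2. In the IPI-926 libraries they were 94, 75 and 17, where it gave 52.7, 30.3 and 18.3. A UMI of Cxcr2 was present in 55.2% to 65.2% of neutrophils and in 0.294% to 4.60% of macrophages and monocytes, at median depths of 986.5 to 1793 UMIs in neutrophils and 5276 to 12458.5 in macrophages and monocytes. With each cell thinned to 1000 UMIs, which leaves 94 neutrophils of IPI-926 replicate 3, the shares were 47.0% to 66.0% and 0% to 1.27%.

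Neutrophils are both the receivers and, for Cxcl2 and Cxcl3, the cells of highest level, so their states were compared. Clustered again without the 5 genes, neutrophils gave 9 clusters. One of 2804 cells was named by 4 markers that include Siglecf, Ltc4s and Cd63, genes of a state described in tumours. One of 1331 cells was named by 7 markers that include Retnlg, Mmp8 and Ly6g, genes of mature neutrophils as they circulate. Both had at least 53 cells in every library.

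Cxcr2 was higher in the Retnlg state. It held 1949, 2375 and 1457 CPM in vehicle replicates 1 to 3 and 1696, 1915 and 1536 CPM in IPI-926 replicates 1 to 3. The Siglecf state held 583.8, 763.2 and 508.2 CPM and 867.0, 504.5 and 878.7 CPM. The 2 ranges do not overlap, and the difference within libraries was 1.43 ± 0.44 on the log2(CPM + 5) scale, higher in 6 of 6 (two-sided exact sign-flip p = 0.03125, the smallest 6 libraries allow). With every cell thinned to 1000 UMIs the difference was 1.43 ± 0.38. Any 5 of the libraries give an exact sign-flip p = 0.0625, the smallest they can.

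Cxcl1 ran the other way. It was higher in the Siglecf state in 6 of 6 libraries, at 75.3 to 503.8 CPM against 0 to 151.9 CPM, and the difference of the Retnlg state from it was -2.73 ± 1.31. Cxcl2 differed in the same direction by much less, -0.25 ± 0.13, also in 6 of 6. Cxcl3 was higher in the Retnlg state in 5 of 6 libraries, 460.6 to 1565 CPM against 113.5 to 285.7 CPM, with 0 in both states of IPI-926 replicate 3. Over the 5 genes the adjusted exact sign-flip p was 0.052 for Cxcr2, Cxcl1 and Cxcl2, 0.078 for Cxcl3 (1.94 ± 1.20) and 0.19 for Cxcl5 (0.35 ± 0.52), and none passed. The comparison of the 4 chemokines was added after the data were seen.

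**Figure D3:**
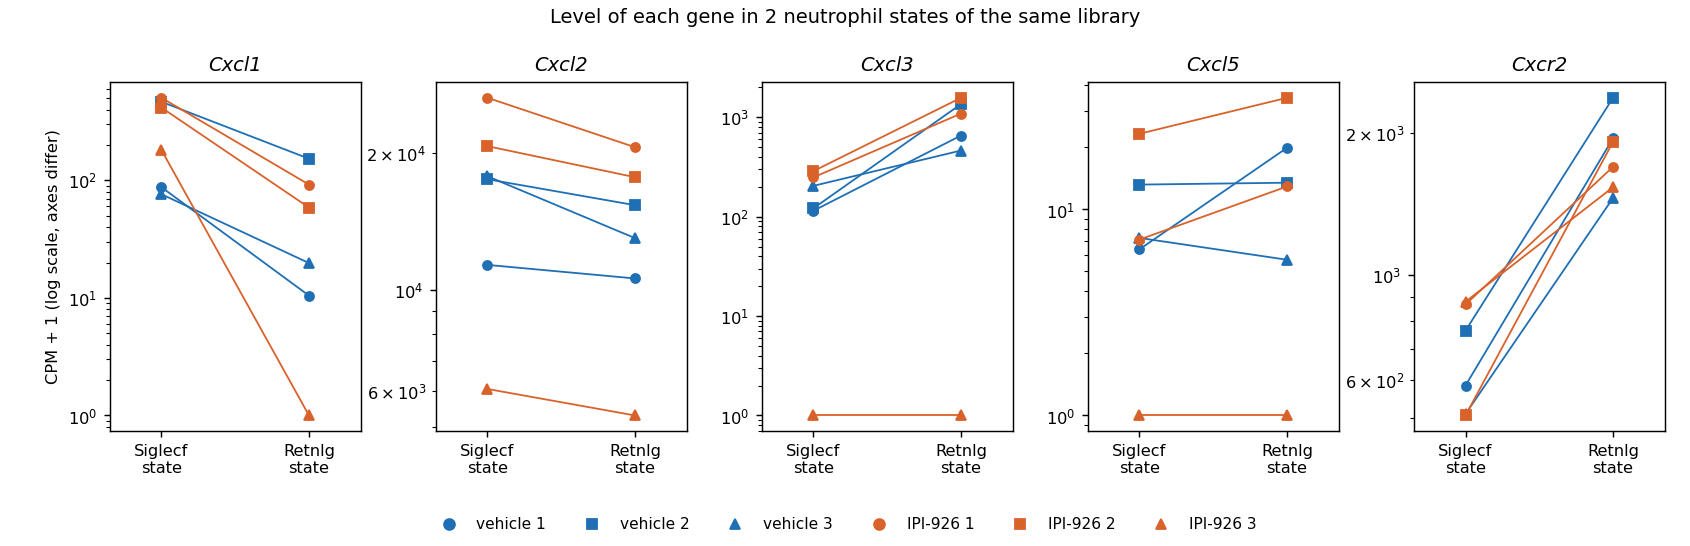
Level of the 5 genes in the Siglecf state and the Retnlg state of neutrophils, as CPM + 1 on log axes that differ between genes, with 1 line per library. All 6 lines fall for Cxcl1 and Cxcl2 and rise for Cxcr2, and 5 of 6 rise for Cxcl3.

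A further neutrophil cluster, chosen after its values were seen, had less Cxcr2 and more Cxcl2 than the named states. It held 829 cells, was led by Ccnf, Fnip2, Hspa1a, Hspa1b and Hilpda, and was left unnamed. It matched 6 markers of the Siglecf-type list, the chemokine genes Ccl3 and Ccl4 among them, but not Siglecf itself. The naming rule, set after the clusters were seen, required Siglecf. The comparison of the named states above therefore leaves this cluster out. In the 4 libraries with at least 20 of its cells it held 51.1 to 308.5 CPM of Cxcr2, below both named states of the same libraries. Its Cxcl3 was 966.7 to 1957 CPM and its Cxcl2 18742 to 38763 CPM, the latter above both named states in each of those libraries. The heat shock genes Hspa1a and Hspa1b among its leading genes also rise when tissue is digested warm, and their part in these levels was not tested. More Cxcl2 than in the named states was not particular to this cluster. Summed over libraries, unnamed neutrophil clusters of 2004 and 178 cells held 26273 and 25865.5 CPM of Cxcl2. The Siglecf and Retnlg states held 20105 and 17190 CPM in such sums. A precursor cluster with Mpo and Elane among its leading genes, and with 29 of its 30 cells from IPI-926 replicate 1, held 26.0 CPM of Cxcr2 there. Another cluster, of 125 cells, matched 10 markers of the mature list, Retnlg included, but was led by the precursor markers Ngp and Camp. The naming rule left it unnamed, so it is outside the comparison of states. Summed over libraries it held 827.0 CPM of Cxcr2, against 1870 CPM in the Retnlg state.

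More chemokine in the other cells of a tumour was not shown to go with more neutrophils. Outside neutrophils, Cxcl2 stood at 663.6, 1517 and 397.4 CPM in vehicle replicates 1 to 3 and 1012, 1725 and 215.6 CPM in IPI-926 replicates 1 to 3. Over the 6 libraries its log2 level and the neutrophil share had Pearson's r = 0.78 (exact permutation p = 0.075) and Spearman's rho = 0.71 (exact permutation p = 0.14). Without the 2 libraries whose neutrophil share lay farthest from the median, IPI-926 replicates 1 and 3, r was 0.80.

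For the other chemokines r was 0.64 for Cxcl5 (exact permutation p = 0.15, rho = 0.60 with p = 0.24), 0.64 for Cxcl3 (p = 0.18, rho = 0.77 with p = 0.10) and 0.53 for Cxcl1 (p = 0.29, rho = 0.49 with p = 0.36). Without the same 2 libraries r was 0.66, 0.59 and 0.45. Adjusted over the 4 genes, the smallest p was 0.24 for r and 0.27 for rho, so no relation passed. IPI-926 replicate 3 was lowest in neutrophils and in all 4 chemokines. Without it r was 0.63 for Cxcl2, 0.37 for Cxcl3, 0.31 for Cxcl5 and -0.02 for Cxcl1. The 3 libraries of a group are too few for a value within it.

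Cxcl5 in ductal cells alone, against the neutrophil share, had r = 0.95 (exact permutation p = 0.011) and rho = 0.94 (p = 0.017), and r = 0.90 without the same 2 libraries. This level was chosen after the data were seen, and over all 13 relations computed, which also include the 4 chemokines over all cells and the values that follow, the adjusted p was 0.13 for r and 0.22 for rho. With the Mcpt8 cluster added, the level in IPI-926 replicate 1 was 92.6 CPM over 850 cells in place of 293.3 CPM over 60 cells, and r was 0.65 (exact permutation p = 0.17). Within macrophages and monocytes r was 0.64 for Cxcl2, 0.44 for Cxcl3 and 0.43 for Cxcl1 (exact permutation p = 0.15, 0.42 and 0.45). Without IPI-926 replicate 3 these r values were 0.31, -0.31 and -0.53.

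**Figure D4:**
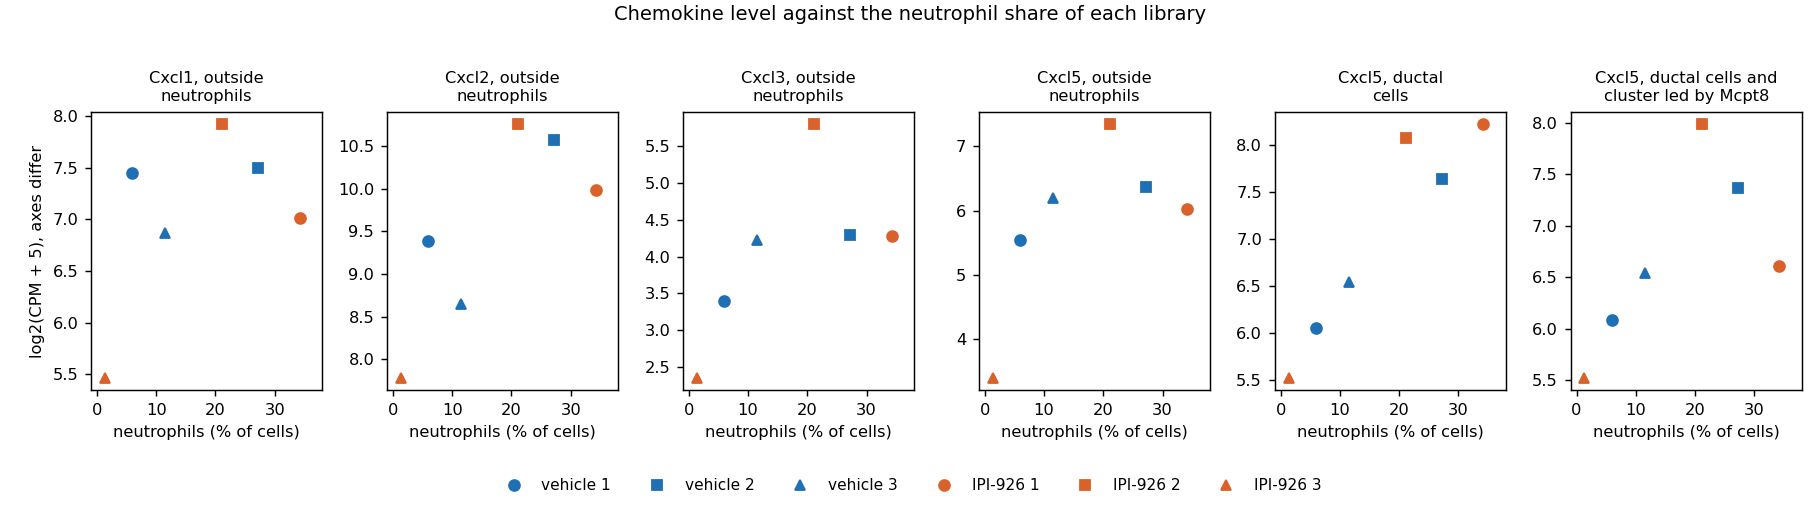
Chemokine level as log2(CPM + 5), on axes that differ, against the neutrophil share of cells, 1 point per library. The first 4 panels take all cells outside neutrophils and the last 2 take Cxcl5 in ductal cells, without and with the cluster led by Mcpt8. IPI-926 replicate 3 is lowest in every panel, and IPI-926 replicate 1, with 34.2% neutrophils, moves from 293.3 to 92.6 CPM between the last 2.

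No member passed between IPI-926 and vehicle in any of the 12 classes and clusters in which a member could be tested, nor in all cells summed (edgeR, Benjamini-Hochberg adjusted over all genes tested in the class). All cells summed had 0 calls among 17859 genes (0%, with 689 at an unadjusted p under 0.05 and 119 calls by DESeq2), and neutrophils 1 among 8542 (0.0117%). There were 0 calls among 12668 genes in macrophages and monocytes, 14697 in ductal cells, 12106 in fibroblasts, 13214 in the Mcpt8 cluster and 8871 in the Cxcl13 cluster (0% each), with 256, 492, 461, 674 and 198 at an unadjusted p under 0.05. The Mmp12 cluster had 3 calls among 9238 (0.0325%), all lower after IPI-926. Of the classes that supplied little of the members, T and NK cells had 1 call (0.014%), mesothelial cells 1 (0.00926%), B cells 1 with no member tested (0.0362%), and endothelial, dendritic and perivascular cells none (0%). In data simulated on the neutrophil sums, edgeR recovered 4.48% of genes changed by 1 on the log2 scale, 56.7% of those changed by 2 and 87.9% of those changed by 4.

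In neutrophils the groups overlapped for each member. Cxcr2 averaged 857.1 ± 171 CPM in vehicle and 1056 ± 178 CPM after IPI-926, with a fitted log2 difference of 0.48 (SE 0.32, adjusted p = 0.9993 by edgeR). Cxcl2 averaged 14422 ± 5062 and 17868 ± 10342 CPM, a log2 fold change of 0.50 (SE 0.57). Cxcl3 had 0.79 (SE 1.30). Without IPI-926 replicate 3 these were 0.35 for Cxcr2, 0.92 for Cxcl2 and 1.37 for Cxcl3. In macrophages and monocytes Cxcl2 had -0.07 (SE 0.63) and Cxcl1 -0.29 (SE 0.93), both positive without that library, and in ductal cells Cxcl5 had 0.74 (SE 0.73).

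Of the 23 values for a member in all cells and in the classes that supplied it, the largest was that of Cxcl3 in the Mmp12 cluster. It stood at 44.8, 15.6 and 68.6 CPM in vehicle replicates 1 to 3 and at 256.7 and 578.7 CPM in IPI-926 replicates 1 and 2, with IPI-926 replicate 3 left out for its 4 cells. The log2 fold change was 3.43 (SE 0.73, adjusted p = 0.70 by edgeR). It passed with no filter on low counts (adjusted p = 4.59e-08), a setting under which 116 genes of this cluster did in place of 3. Over its 13 alternatives the log2 fold change ran from 2.56 to 4.03 and the adjusted p from 4.59e-08 to 0.999. In those libraries Cxcl3 exceeded the neutrophil-RNA yardstick, with 491 and 3493 UMIs against 5.18 and 13.5. Cxcl1 in the same cluster stood at 451.1 to 544.7 CPM in vehicle and at 557.4 and 754.5 CPM after IPI-926. Its fitted log2 difference was 0.53 (SE 0.31, adjusted p = 0.9995 by edgeR).

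**Figure D5:**
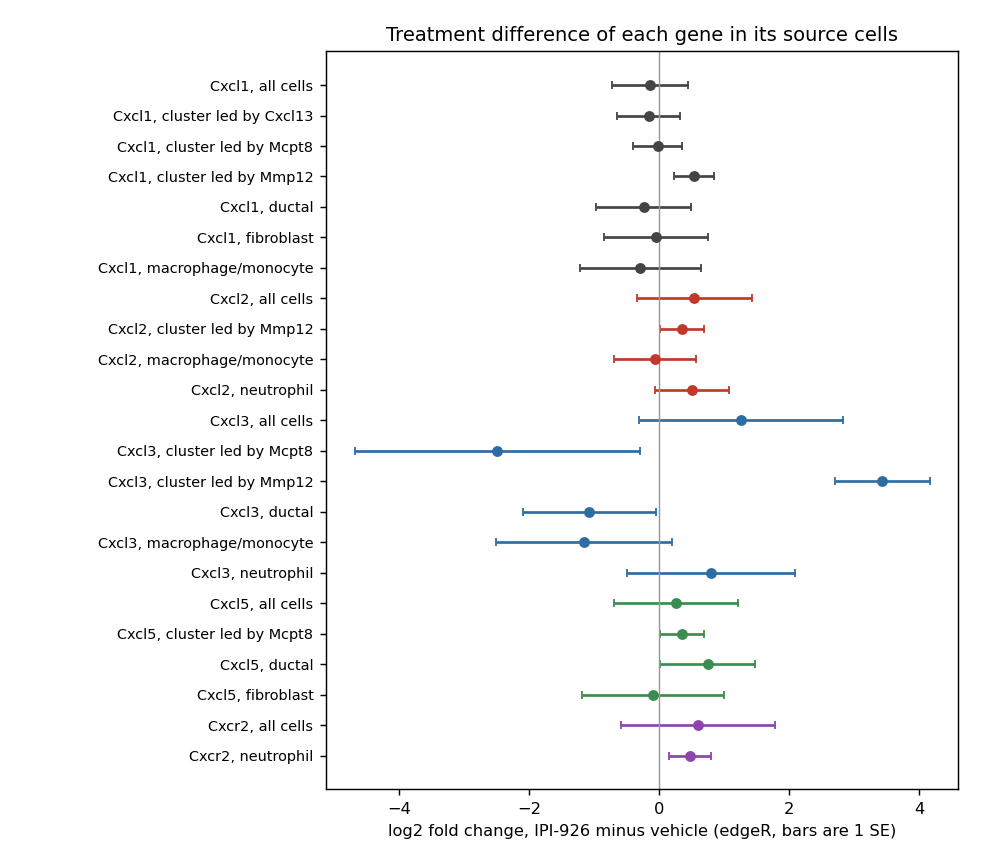
Log2 fold change between IPI-926 and vehicle for each gene in all cells and in the classes that supply at least 5% of its UMIs on average, from edgeR, with bars of 1 SE. Of the 23 values, Cxcl3 in the cluster led by Mmp12 lies farthest from 0 at 3.43, and the others lie between -2.49 and 1.25.

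Genes upstream and beside the members did not pass either. In neutrophils, 7 of 7 tested receptors for the inducing signals had a positive log2 fold change and 0 passed, with a median of 0.57 against -0.02 over all genes, and Il1rap, the shared interleukin-1 receptor subunit, at 0.74 (SE 0.28) had the smallest p. In macrophages and monocytes, 6 of 7 tested cytokines of the upstream list, which also holds growth factors, had a negative value and 0 passed. Their median was -0.29 against 0.01 over all genes. The 2 of smallest p were Tnf, a positive one at 0.51 (SE 0.33), and Csf3, the granulocyte growth factor, at -0.84 (SE 0.79). Of the NF-kB response genes 14 were tested in neutrophils, 11 with a positive value and none called, with Ier3 at 0.93 (SE 0.42) and Nfkbia, the inhibitor that NF-kB induces, at 0.70 (SE 0.52). Of the other receptors and adhesion molecules of neutrophils, 11 of 11 had a positive value in neutrophils and 0 passed, with a median of 0.48 and the chemokine receptor gene Ccr1 at 0.55 (SE 0.31). Of 7 further genes of the axis, 3 were tested in the Mmp12 cluster and 0 passed. All 3 had a positive value there, with a median of 3.01 against 0.003 over all genes. In the other classes the median of this list ran from -1.02 in mesothelial cells to 0.38 in neutrophils. In the Mmp12 cluster Ppbp, another Cxcr2 ligand, had a fitted log2 difference of 4.26 (SE 0.99, adjusted p = 0.44 by edgeR). Pf4 had one of 3.01 there (SE 1.18, adjusted p = 0.9995 by edgeR). Both are known as platelet genes, and Pf4 was also among the 10 leading genes of a macrophage cluster of 94 cells. The part of platelet RNA in the values of the Mmp12 cluster, Cxcl3 included, was not tested. Of 12 genes known to respond to dissociation, 11 had a positive value in neutrophils, with a median of 0.86. In neutrophils 4 of the 12 had an unadjusted edgeR p under 0.05, beside 314 of all 8542 genes tested (3.68%). Over all cells 9 of 12 were negative. The part of these 12 genes' response in the members' levels was not tested.

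Across 82 sums of a library and class, the genes most like each member in log2(CPM + 5) differed between members, as a description of 8847 genes in sums that share libraries. Cxcl2 went with Nlrp3 (r = 0.94), Clec4e, Clec4d, Il1b and Trem1, genes of activated myeloid cells, of which 3 were also used to name neutrophils. Cxcr2 went with Il1f9 (r = 0.97), Stfa2l1, Rab44, Retnlg and Asprv1, in sums where neutrophils stand far above the rest. Cxcl5 went with Inava (r = 0.81), Baiap2l1, Serinc2 and Rdh10, and Cxcl3 with Il1a (r = 0.82), Car4, Rabgef1, Il23a and Wfdc21. Cxcl1 had no gene above 0.77, the value of Akap7, followed by Thbs1, P4ha1, Olr1 and Sod2. Stfa2l1, Retnlg and Wfdc21 had also been used to name neutrophils. Among the members themselves Cxcl2 and Cxcl3 were most alike (r = 0.70), and Cxcl5 was like none of the others (r = -0.15 to 0.12).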

How the data were processed

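The files hold UMI counts per gene and cell, deposited by the authors as filtered matrices without normalization. Cell Ranger 2.1.1 and mm10 are named per the submitters' processing notes, and cellranger 6.1.2 per the file headers. The gene annotation is not given in the sources used here.

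A cell needed at least 500 UMIs and 300 genes, with no more than 20% of UMIs mitochondrial, and 5114 of 54911 were removed as doublets found by simulation. Library totals were 100810942 to 174929328 UMIs. Cells were clustered (scanpy 1.11.5, leidenalg 0.10.2, 30 principal components, resolution 1) without the 5 members, and 14 of 47 clusters were left unnamed. Neutrophils were clustered again after centring each library. Counts were summed per library and class of at least 20 cells and tested with edgeR 4.0.16 (quasi-likelihood, TMM, Benjamini-Hochberg, threshold 0.05), with DESeq2 1.42.0 and limma-voom 3.58.1 as alternatives. Smaller families used exact permutation or sign-flip tests.

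The members and lists were chosen with earlier results of these data known. The rule that leaves low-depth clusters unnamed, the library centring, the rule for naming states, the source classes followed (at least 5% of a gene's UMIs) and the motif were set after seeing the data. Named besides the members are at most 2 genes of smallest p in each list, the 5 genes most like each member, and state markers. The exact tests treat 1 library per mouse as the replicate. One allele of the mice's genotype and the values of some genes are not reported here.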

Additional observations from a re-analysis of the deposited data

How the results depend on the processing

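No paired analysis was possible because the labels give the libraries no shared replicate numbers, which here only follow accession order. Of 303 alternatives to the 23 treatment fold changes, 274 kept direction and side of the threshold, 28 turned direction and 1 came to pass, Cxcl3 in the Mmp12 cluster with no filter on low counts (log2 3.47). The cause was not tested. Those that turned outside leave-one-out were Cxcl3 (-1.52) and Cxcl5 (-0.70) in all cells and Cxcl3 in neutrophils (-0.72) with limma-voom, Cxcl1 in fibroblasts with the stricter cell filter (0.011) and in the Mcpt8 cluster with no filter on low counts (0.012), and Cxcl5 in the Mcpt8 cluster with equal cells per library (-0.17) and in fibroblasts with at least 50 cells (0.13). As a share of immune cells the neutrophil difference was -6.05 percentage points.

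Leaving out each library in turn moved the neutrophil share difference between -3.63 and 12.8 points. It moved r of Cxcl1 outside neutrophils between -0.020 and 0.72. No p was computed for these leave-one-out values. The Cxcr2 difference between states ranged from 1.33 to 1.55, each with an exact sign-flip p = 0.0625, the smallest that 5 libraries allow. Fold changes ranged in all cells from -0.78 to 0.29 for Cxcl1, -0.89 to 0.80 for Cxcl5 and -0.38 to 1.95 for Cxcr2. Cxcl1 ranged from -1.64 to 0.25 in macrophages and monocytes, -0.49 to 0.53 in fibroblasts, -1.60 to 0.15 in ductal cells, -0.84 to 0.16 in the Cxcl13 cluster and -0.79 to 0.47 in the Mcpt8 cluster. Cxcl2 in macrophages and monocytes ranged from -0.69 to 0.40, Cxcl3 from -1.86 to 0.0081 in ductal cells and -4.02 to 0.32 in the Mcpt8 cluster, and Cxcl5 from -0.26 to 0.77 in the Mcpt8 cluster and -1.50 to 1.38 in fibroblasts.

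Counts of genes called depended on the tool. DESeq2 called 119 in all cells, 5 in the Cxcl13 cluster, 69 in the Mcpt8 cluster, 23 in the Mmp12 cluster, 23 in ductal cells, 27 in fibroblasts, 4 in macrophages and monocytes and 9 in neutrophils. With no filter on low counts edgeR called 3 in the Cxcl13 cluster, 23 in the Mcpt8 cluster, 116 in the Mmp12 cluster and 43 in neutrophils. limma-voom called 0 in the Mmp12 cluster and 0 in neutrophils, doublets kept gave 0 in neutrophils, and equal cells per library gave 1 in ductal cells. Leaving out each library gave 0 to 1 in the Cxcl13 cluster, 0 to 192 in the Mcpt8 cluster, 0 to 56 in the Mmp12 cluster and 0 to 2 in neutrophils. The 192 (without IPI-926 replicate 2) and the 56 (without IPI-926 replicate 1, against 12 without IPI-926 replicate 2) come from fits with 1 IPI-926 library, which is assumed to vary as the vehicle libraries do. With 2 libraries in each group the counts were 0 to 1 and 0 to 4.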
